A study of Mus musculus with 6 samples.

Results

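The general actin cytoskeleton is described here through 39 genes for actin and its regulators, chosen by symbol: cytoplasmic actins, nonmuscle myosin II, tropomyosins, crosslinkers and adhesion linkers, monomer and turnover factors, the ARP2/3 complex, capping protein, filament elongation and branch regulators, and the filamin-interacting gene Filip1l. These 39 symbols matched 40 of the 55414 gene rows of the deposited table, because 2 rows carry the symbol Myl12b, and all 40 rows were among the 13972 that passed the expression filter. RNA was sequenced from TM4, a male mouse testis line labelled as Sertoli cells, which nurse germ cells inside the seminiferous tubule. The groups were 3 libraries labelled VC and 3 untreated control libraries, all from this single line. The sample titles and the series title point to vitamin C for VC, whereas valine is named in a characteristic of the samples and in the design text. The labels give no dose and no exposure time, so the group is called VC throughout. Nothing says that replicates came from separate cultures, so p-values reflect only how these libraries varied, and that variation may be technical.

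Actin monomers assemble into polar filaments that turn over as monomers are added at one end and lost at the other. Profilin and thymosin hold and deliver monomers, formins and Ena/VASP proteins elongate filaments, the ARP2/3 complex starts branches, capping protein stops growth, and cofilin with its helpers takes filaments apart. Myosin II gives the filaments contractile force, and tropomyosin controls what binds them. Filamin, alpha-actinin, vinculin and talin tie filaments to each other and to adhesions. In Sertoli cells, actin bundles support the junctions of the blood-testis barrier and the adhesions that hold germ cells.

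The libraries held 20408425 to 22316857 reads, recovered from the deposited values, and every pair differed by more than sampling noise. Pairs with control replicate 3 differed most, with a chi-square per degree of freedom of 8.76 to 15.6, while the remaining pairs gave 2.65 to 6.69. The 13 mitochondrially encoded genes had a median log2 difference of -0.12, VC minus control, and the 78 ribosomal protein genes one of -0.12. Limma called 0 in either list, while 5 and 24 had an unadjusted p under 0.05, all lower. Of all tested genes 0.687% were called and 8.2% were lower at that p. Of those with a mean value of 50 or more, 21.0% were lower at that p. Both lists can track RNA quality, and their part in the differences below was not tested. Of 15 Sertoli markers, 5 were at 0 in all libraries (Wt1, Fshr, Dmrt1, Shbg and Nr0b1), so the labelled cell type is only partly borne out by its defining genes. The 15 markers, of which 7 passed the filter, summed to 333.2 to 346.1 in VC and 305.7 to 331.5 in control. Most of that sum came from Inhbb and Inhba, with means over all libraries of 166.2 and 117.9. Markers of other cell types summed to 2.74 to 3.53 in VC and 2.34 to 3.38 in control for 7 Leydig genes, 3.48 to 4.30 and 2.06 to 3.44 for 9 germ cell genes, and 44.8 to 50.1 and 41.5 to 45.5 for 6 endothelial genes. They summed to 61.1 to 71.3 in VC and 55.7 to 65.9 in control for 7 macrophage genes. For 8 fibroblast genes the sums were 1116 to 1158 and 1169 to 1208, and none of these markers was called. The 15 smooth muscle contractile genes, described further below, summed to 1404 to 1433 in VC and 1901 to 2002 in control. Of that list 5 genes were called lower, where 0.258% of all tested genes were. Single genes carried several sums: Ecscr (mean 41.8) the endothelial and Cd14 (57.2) the macrophage sum. Col1a1 (652.8) and Col1a2 (383.2) carried the fibroblast sum. These sums therefore say little about whole cell types. In bulk RNA, fewer cells expressing a gene and less of its RNA per cell cannot be told apart.

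Values are given on the deposited scale, a length-scaled abundance (TPM) times 1 factor per library, and differences subtract control from VC after log2(value + 1). The members were abundant: their median rank by mean level was at the 95.4th percentile of tested genes, and 35 of 40 rows had a mean value of 50 or more. Most were lower in VC by a small amount. Of 40 rows, 33 had a log2 difference below 0, where 46.3% of all tested genes did. The differences ran from -0.33 for Filip1l to 0.19 for Flnc, with a median of -0.11, while the median over all 13972 tested genes was 0.01. Dstn was the only member past an adjusted p of 0.05 by limma, and it fell. That is 1 of 40 rows, where 0.258% of all tested genes were called lower, 0.429% higher and 0.687% in either direction. At an unadjusted p under 0.05, 18 rows were lower and 0 higher, against 8.2% of all tested genes lower and 9.05% higher. In 24 of 40 rows all 3 VC values lay below all 3 control values and in 1 row all lay above, where 11.6% and 13.9% of all tested genes did so. Among the 3044 tested genes with a mean value of 50 or more, 21.0% were lower at an unadjusted p under 0.05, 28.5% had all VC values below all control values, 0.986% were called lower, and the median log2 difference was -0.04. The whole list made up 1.99%, 2.02% and 2.05% of the library total in VC and 2.10%, 2.14% and 2.11% in control, without overlap.

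**Figure D1:**
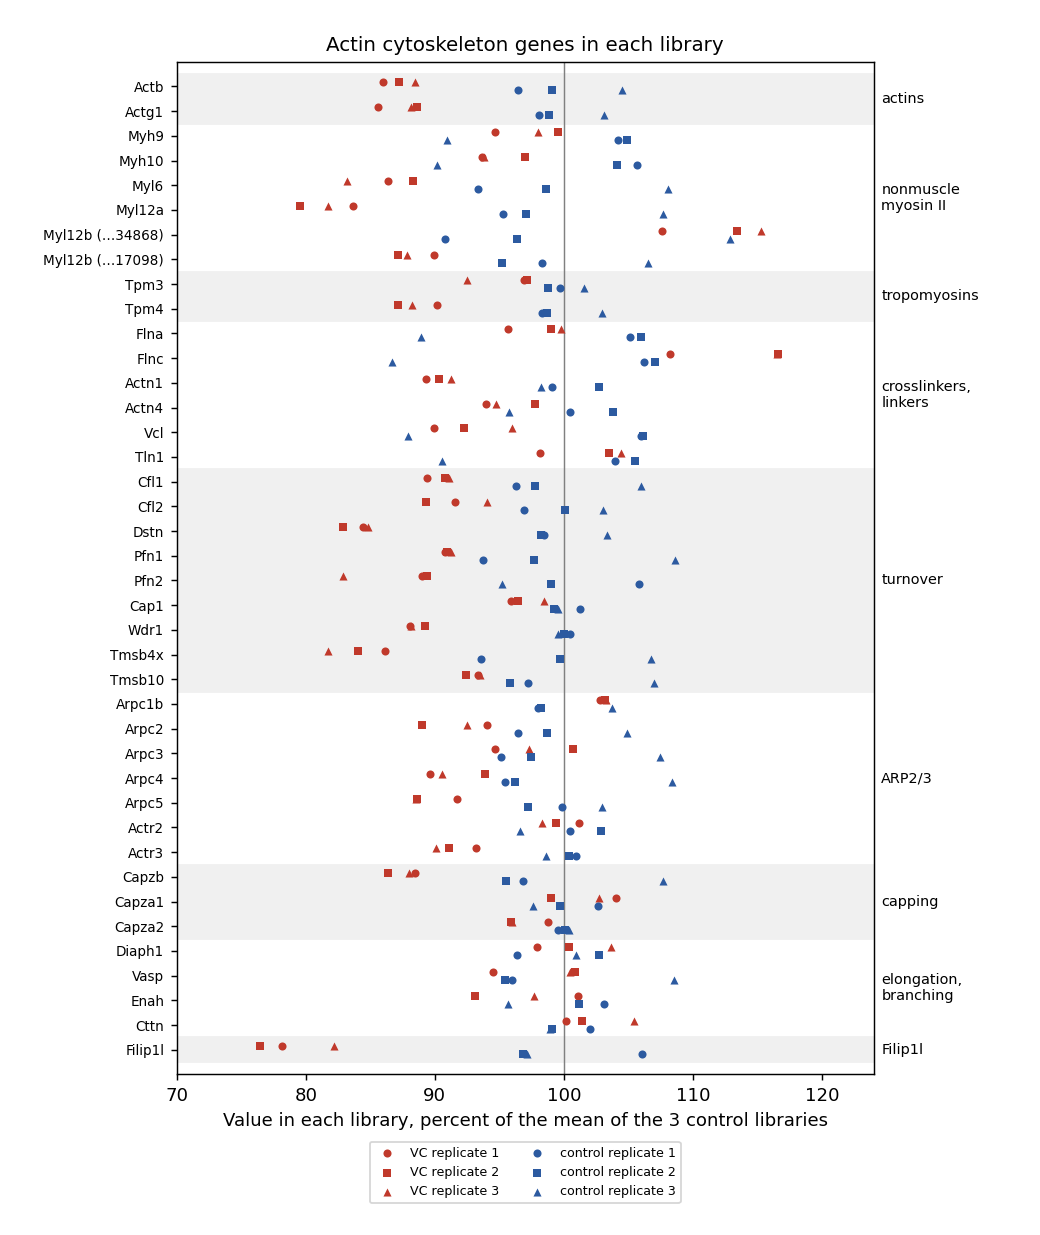
Value of each actin cytoskeleton gene in each of the 6 libraries (x axis, percent of the mean of the 3 control libraries; rows are genes grouped by role; red points are VC, blue points control, and marker shape gives the replicate). All 9 turnover rows and both actins have their 3 VC points left of their 3 control points, while control replicate 3 lies at the far left of its row for Flna, Flnc, Myh9 and Tln1.

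The scaling of libraries bears on how many members were lower. With libraries scaled to equal totals, 23 of 40 rows were below 0, and 12 were lower and 3 higher at an unadjusted p under 0.05. On this scale 27.8% of all tested genes were below 0, and 3.36% were lower and 17.5% higher at that p. The median of the members was then -0.04 and that of all tested genes 0.08. Scaling a library moves all its genes by nearly the same log2 amount. The gap between the medians, -0.12 on this scale and -0.12 on the deposited one, could therefore hardly change. Over the whole table limma called 96 genes, 60 higher and 36 lower, and 182 higher and 35 lower with equal totals. Quantile normalization left a gap of -0.04, and removing each library's trends with exon length and level left a gap of -0.06. Quantile normalization makes the values at each rank equal in all libraries, which leaves the most abundant genes little room to differ.

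The main cytoplasmic actins had the highest values of the list and similar log2 differences. Actb, beta-actin, had 3753, 3808 and 3863 in VC and 4210, 4325 and 4563 in control, a log2 difference of -0.20 (SE 0.046, limma adjusted p = 0.110). Actg1, gamma-actin, had 3723, 3854 and 3833 in VC and 4265, 4298 and 4483 in control, a log2 difference of -0.19 (SE 0.042, limma adjusted p = 0.0963). All 3 VC values of each gene lay below all 3 control values, and neither gene passed the threshold. For Actb the difference was -0.12 with equal totals, -0.08 with length and level trends removed and 0.003 after quantile normalization. The last value says little, because genes at the top ranks can hardly differ after that step. The ratio of Actb to Actg1 was 1.01, 0.988 and 1.01 in VC and 0.987, 1.01 and 1.02 in control, so the libraries overlapped in this ratio. Actb and Actg1 made up 0.760%, 0.785% and 0.797% of the library total in VC and 0.838%, 0.856% and 0.855% in control. This share does not depend on the scaling of libraries, and all VC shares lay below all control shares.

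Reads of Actg1 may not all be its own. Of the 75-base windows of its longest coding transcript, 54.5% also occur in transcripts of other genes, chiefly pseudogenes, against 2.6% for Actb. How the authors treated reads with several matches is not given in the sources used here.

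**Figure D2:**
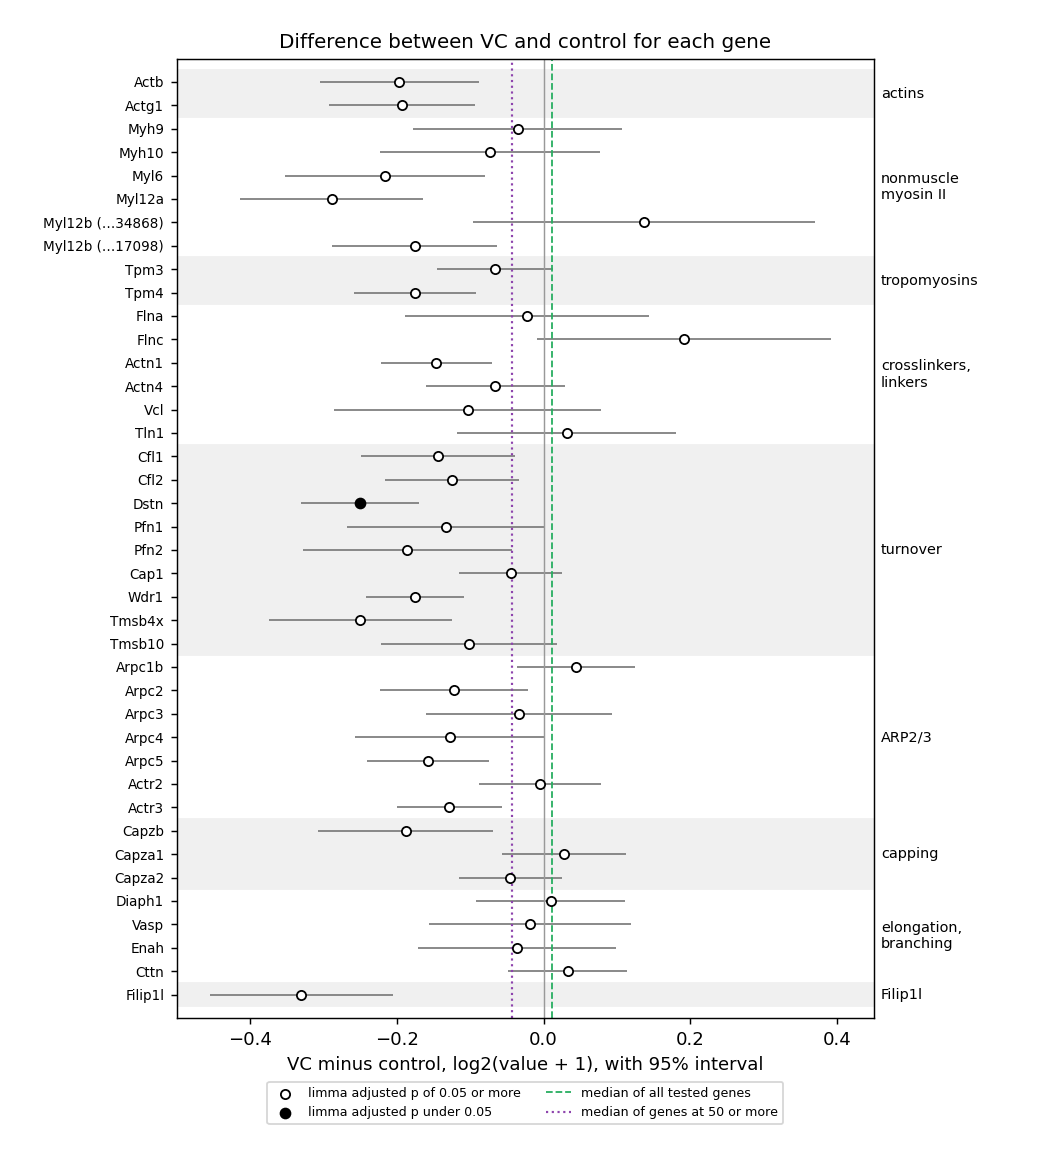
Difference between VC and control for each gene (x axis, log2(value + 1), VC minus control; points are limma estimates, bars 95% intervals, filled where the adjusted p is under 0.05; lines mark 0 and the medians of all tested genes and of genes with a mean value of 50 or more). Dstn at -0.25 is the filled point, and Filip1l at -0.33 is the furthest left.

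Turnover factors, which bind monomers or take filaments apart, all lay lower in VC: in 9 of 9 rows the groups did not overlap, with a median log2 difference of -0.14 and 6 rows at an unadjusted p under 0.05. Of tested genes with a mean of 50 or more, 28.5% had all VC values below all control values and 21.0% were lower at that p, against 11.6% and 8.2% of all tested genes. The median of the turnover rows was -0.07 with equal totals and -0.10 without control replicate 3. Dstn, destrin or actin-depolymerizing factor, had 475.3, 466.5 and 477.3 in VC and 554.4, 552.7 and 581.6 in control. It fell by 0.25 on the log2 scale (SE 0.034, limma adjusted p = 0.0348), and its VC mean was 0.840 of its control mean. This call was lost without any 1 of control replicates 1 and 2 and VC replicates 1, 2 and 3, with limma adjusted p from 0.107 to 0.181, and was kept without control replicate 3 (0.0361). It was also lost with no expression filter (limma adjusted p = 0.0848), with the replicate block (0.143) and after quantile normalization (0.0741). Dstn rested on 6871 to 9227 reads per library, and no 75-base window of its longest coding transcript occurs in another gene.

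Within the cofilin family, Dstn took a smaller share in VC. It made up 32.7%, 32.1% and 32.4% of the summed values of Cfl1, Cfl2 and Dstn in VC, and 34.5%, 34.1% and 33.5% in control. The groups did not overlap in this share. Cfl1, the main cofilin of non-muscle cells, had 903.2, 916.8 and 920.1 in VC and 972.4, 987.5 and 1070 in control (log2 difference -0.14, SE 0.044, limma adjusted p = 0.180), and 16.5% of its exon bases overlap Snx32 on the other strand. Cfl2, the muscle-type cofilin, averaged 74.0 ± 1.90 in VC and 80.7 ± 2.44 in control (SD, n = 3 each; log2 difference -0.12). The 3 genes summed to 0.194, 0.190 and 0.191 of the sum of Actb and Actg1 in VC and 0.189, 0.188 and 0.192 in control, so the groups overlapped when the family was set against actin.

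Wdr1, which helps cofilin disassemble filaments, had 136.8, 138.6 and 136.9 in VC and 155.9, 155.3 and 154.6 in control. Its log2 difference was -0.17 (SE 0.028), with a limma adjusted p of 0.0539, and its replicates were among the closest of the list. The monomer-binding thymosin Tmsb4x had 382.6, 373.2 and 362.7 in VC and 415.4, 442.6 and 474.0 in control, a log2 difference of -0.25 (SE 0.053, limma adjusted p = 0.0929). Its paralog Tmsb10 had 2133, 2113 and 2136 in VC and 2222, 2189 and 2446 in control, a log2 difference of -0.10 (SE 0.050, limma adjusted p = 0.355) that was 0.03 with length and level trends removed. Tmsb4x made up 15.2%, 15.0% and 14.5% of the 2 thymosins in VC and 15.8%, 16.8% and 16.2% in control, without overlap. Pfn1, the common profilin that delivers monomers to growing ends, had 961.1, 963.0 and 966.4 in VC and 992.5, 1034 and 1150 in control (log2 difference -0.13, SE 0.057, limma adjusted p = 0.291). The gap between the groups was narrow for Pfn1, and its log2 difference was -0.07 without control replicate 3. Pfn2, a profilin best known from neurons, averaged 13.6 ± 0.571 in VC and 15.6 ± 0.838 in control (SD, n = 3 each) on 368 to 452 reads. Cap1, which helps recycle monomers, averaged 368.7 ± 5.17 in VC and 380.3 ± 4.05 in control and had a log2 difference of -0.04, which was 0.03 with equal totals, 0.03 after quantile normalization and 0.02 with trends removed.

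Both heavy chains of nonmuscle myosin II overlapped between groups with control replicate 3 and neither did without it. With all libraries, 3 of 4 light chain rows did not overlap. All VC values lay below all control values in 11.6% of all tested genes and 28.5% of those with a mean of 50 or more. Myh9, the heavy chain of myosin IIA, had 397.9, 418.5 and 411.9 in VC and 438.2, 440.9 and 382.2 in control, a log2 difference of -0.04 (SE 0.060, limma adjusted p = 0.800) that was 0.04 with equal totals and 0.04 after quantile normalization. Control replicate 3 lay below all VC values and the other controls above them. Myh10, the heavy chain of myosin IIB, averaged 94.4 ± 1.90 in VC and 99.5 ± 8.49 in control (SD, n = 3 each), with the same position of control replicate 3, at 89.8. Without that library the log2 differences were -0.10 for Myh9 and -0.14 for Myh10, against -0.04 and -0.07 with it. The ratio of Myh9 to Myh10 was 4.27, 4.33 and 4.41 in VC and 4.17, 4.25 and 4.26 in control.

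The light chains were lower in VC without overlap, apart from 1 row. Myl6, the essential light chain, had 448.8, 458.6 and 432.0 in VC and 485.0, 512.3 and 561.3 in control (log2 difference -0.22, SE 0.058, limma adjusted p = 0.140). Myl12a, a regulatory light chain whose phosphorylation switches myosin on, had 120.9, 114.9 and 118.0 in VC and 137.6, 140.2 and 155.6 in control (log2 difference -0.29, SE 0.053, limma adjusted p = 0.0698). The VC mean of Myl12a was 0.816 of its control mean. Without control replicate 3 the log2 differences were -0.16 for Myl6 and -0.23 for Myl12a. The regulatory light chain Myl12b has 2 rows in the table. ENSMUSG00000117098 averaged 83.1 ± 1.37 in VC and 94.1 ± 5.50 in control, and ENSMUSG00000034868 averaged 4.49 ± 0.160 and 4.01 ± 0.461 (SD, n = 3 each), on 78 to 104 reads. In the gene models at hand every exon base of the first row lies in Myl12a (38.5%) or in the second row (61.5%), so the 3 rows of regulatory light chains are not separate measurements.

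Tropomyosins, which run along the filament and control what binds it, were lower in VC in both genes. Tpm4 had 887.6, 857.9 and 868.0 in VC and 967.8, 971.3 and 1014 in control (log2 difference -0.18, SE 0.035, limma adjusted p = 0.0822). Tpm3 had 256.0, 256.6 and 244.3 in VC and 263.2, 260.9 and 268.3 in control (log2 difference -0.07, SE 0.034, limma adjusted p = 0.365, and 0.01 with equal totals). Neither overlapped between groups on the deposited scale. The ratio of Tpm4 to Tpm3 was 3.47, 3.34 and 3.55 in VC and 3.68, 3.72 and 3.78 in control, again without overlap. In the longest coding transcript of Tpm3, 53.3% of 75-base windows occur in other genes.

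Crosslinkers and adhesion linkers held differences of both signs, 4 below 0 and 2 above. At an unadjusted p under 0.05 by limma, 1 of 6 rows was lower. At that p 8.2% of all tested genes and 21.0% of those with a mean of 50 or more were lower. The median log2 difference of the 6 rows was -0.04. Leaving out control replicate 3 put the median at -0.10, while leaving out control replicate 1 put it at -0.02 and control replicate 2 at -0.01. It was above 0 with equal totals (0.03) and after quantile normalization (0.04), and -0.02 with trends removed. Flna, filamin A, which joins filaments into networks, had 658.8, 682.0 and 687.3 in VC and 724.0, 729.8 and 612.4 in control (log2 difference -0.02, SE 0.070, limma adjusted p = 0.903). Flna was at -0.10 without control replicate 3, and its sign turned with equal totals (0.05), after quantile normalization (0.06) and without control replicate 1 (0.02) or 2 (0.02). Flnc, filamin C, best known from muscle, had 306.5, 330.2 and 329.9 in VC and 300.8, 303.3 and 245.6 in control. It was the 1 member whose VC values all lay above its control values, with a log2 difference of 0.19 (SE 0.085, limma adjusted p = 0.308) that was 0.09 without control replicate 3. The ratio of Flnc to Flna was 0.465, 0.484 and 0.480 in VC and 0.415, 0.416 and 0.401 in control, and here control replicate 3 lay near the other controls.

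The alpha-actinins bundle filaments and anchor them at adhesions. Actn1 had 201.4, 203.5 and 205.6 in VC and 223.3, 231.5 and 221.3 in control (log2 difference -0.15, SE 0.032, limma adjusted p = 0.0973). Actn4 had 330.3, 343.6 and 333.0 in VC and 353.0, 364.8 and 336.5 in control (log2 difference -0.07, SE 0.040, limma adjusted p = 0.445), which was 0.01 with equal totals and 0.01 after quantile normalization. Only Actn1 was free of overlap. Vcl, vinculin, averaged 86.8 ± 2.88 in VC and 93.6 ± 9.81 in control, and Tln1, talin 1, which links integrins to actin, averaged 221.2 ± 7.27 and 216.8 ± 17.8 (SD, n = 3 each). Of the exon bases of Vcl, 25.5% overlap Ap3m1 on the other strand. Without control replicate 3 the log2 differences were -0.19 for Vcl, against -0.10 with it, and -0.04 for Tln1, against 0.03 with it.

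The ARP2/3 complex was represented by 7 subunits, with a median log2 difference of -0.12 and 3 lower at an unadjusted p under 0.05, where 8.2% of all tested genes and 21.0% of those with a mean of 50 or more were. The median was -0.07 without control replicate 3, -0.05 with equal totals, -0.05 after quantile normalization and -0.04 with trends removed. Summed over the 7 genes the complex stood at 1540, 1521 and 1520 in VC and 1586, 1594 and 1666 in control. Arpc2 had 341.1, 322.9 and 335.7 in VC and 349.9, 358.1 and 380.5 in control (log2 difference -0.12, SE 0.043, limma adjusted p = 0.224). Arpc1b had 282.7, 283.7 and 283.9 in VC and 269.5, 270.1 and 285.2 in control (log2 difference 0.04, SE 0.034, limma adjusted p = 0.545). Arpc1b was thus the subunit with a positive difference, while Arpc5 (-0.16), Actr3 (-0.13), Arpc4 (-0.13) and Arpc2 did not overlap between groups on the lower side. Arpc3 (-0.03, and 0.04 with equal totals) and Actr2 (-0.005, and 0.07 with equal totals) overlapped, and Actr2 and Actr3 encode the actin-related proteins from which a branch grows. Exons of Arpc1b overlap Pdap1 on the other strand over 18.2% of their bases, and those of Arpc4 overlap Ttll3 over 12.2%.

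Capping protein is a dimer of an alpha and a beta subunit that closes the growing end. The beta subunit Capzb had 168.3, 164.3 and 167.5 in VC and 184.2, 181.8 and 204.9 in control (log2 difference -0.19, SE 0.050, limma adjusted p = 0.140). The alpha subunit Capza1 had 222.1, 211.4 and 219.3 in VC and 219.2, 212.9 and 208.4 in control (log2 difference 0.03, SE 0.036, limma adjusted p = 0.729). Capzb did not overlap between groups and Capza1 did. Capza2 averaged 169.5 ± 2.88 in VC and 174.9 ± 0.786 in control (SD, n = 3 each), a log2 difference of -0.05 that was 0.03 with equal totals. The ratio of Capzb to the sum of Capza1 and Capza2 was 0.426, 0.434 and 0.433 in VC and 0.469, 0.469 and 0.534 in control. Windows shared with other genes made up 67.0% of the longest coding transcript of Capza1 and 0% of those of Capzb and Capza2.

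Elongation and branch regulators overlapped between groups in 4 of 4 genes, with log2 differences from -0.04 to 0.03. Vasp, which speeds elongation, had 170.0, 181.5 and 180.7 in VC and 172.8, 171.7 and 195.3 in control (log2 difference -0.02, SE 0.058, limma adjusted p = 0.905, and 0.05 with equal totals). Cttn, cortactin, which stabilises branches, had 167.6, 169.7 and 176.4 in VC and 170.7, 165.8 and 165.5 in control (log2 difference 0.03, SE 0.034, limma adjusted p = 0.660). The 95% interval of the log2 difference ran from -0.16 to 0.12 for Vasp and from -0.05 to 0.11 for Cttn. The formin Diaph1 averaged 40.6 ± 1.16 in VC and 40.3 ± 1.33 in control, and the Ena/VASP protein Enah 12.9 ± 0.528 and 13.2 ± 0.511 (SD, n = 3 each). The log2 difference of Diaph1 was 0.01, which was 0.08 with equal totals and -0.02 with trends removed. That of Enah was -0.04, which was 0.03 with equal totals and -0.17 with trends removed.

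Filip1l, named for its likeness to a filamin A-interacting protein, had the most negative log2 difference of the list. It had 27.4, 26.8 and 28.8 in VC and 37.2, 34.0 and 34.1 in control, a log2 difference of -0.33 (SE 0.053, limma adjusted p = 0.0539). The VC mean was 0.789 of the control mean, on 1103 to 1538 reads per library. Its adjusted p was under 0.05 in 4 of 15 alternative settings, among them the removal of length and level trends (limma adjusted p = 0.0227) and a fit of recovered reads (0.00567).

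When the recovered reads were fitted with limma-voom, it called 12 of the 40 rows lower and 0 higher. Of 13772 genes in that fit, 207 (1.5%) were called lower and 341 higher. That share covers genes of all levels, while most members are abundant. The 12 were Actb, Actg1, Actn1, Arpc5, Capzb, Dstn, Filip1l, Myl12a, Myl6, Tmsb4x, Tpm4 and Wdr1. Their log2 differences in that fit lay at most 0.00954 from those above. The reads were recovered from the same values, so this closeness was fixed in advance and is no check.

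Several of these genes are textbook targets of serum response factor (SRF), which binds a motif known as the CArG box, and the promoters that hold this motif are shown for that reason. RefSeq promoter windows on build GRCm38.p6, from 250 bases before to 50 after a start, were matched for 36 of the 39 symbols. Actb, Diaph1 and Cttn had no window at hand and were not searched. The motif, 2 C, then 6 bases that are A or T, then 2 G, was searched on both strands, on which it reads the same. It occurred in the windows of 5 of 36 member genes (13.9%), against 1.81% of 27025 genes with a window. A match is a run of letters in this window, not a site shown to be bound. In the lines that follow capitals mark the motif.
Actg1, chr11:120348446-120348745, minus strand: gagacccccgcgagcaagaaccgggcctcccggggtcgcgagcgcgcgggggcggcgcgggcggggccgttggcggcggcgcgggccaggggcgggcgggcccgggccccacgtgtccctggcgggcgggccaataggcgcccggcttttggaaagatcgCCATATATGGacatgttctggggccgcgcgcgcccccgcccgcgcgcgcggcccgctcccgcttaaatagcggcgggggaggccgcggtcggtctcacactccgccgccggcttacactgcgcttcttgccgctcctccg
Myl6, chr10:128492960-128493259, minus strand: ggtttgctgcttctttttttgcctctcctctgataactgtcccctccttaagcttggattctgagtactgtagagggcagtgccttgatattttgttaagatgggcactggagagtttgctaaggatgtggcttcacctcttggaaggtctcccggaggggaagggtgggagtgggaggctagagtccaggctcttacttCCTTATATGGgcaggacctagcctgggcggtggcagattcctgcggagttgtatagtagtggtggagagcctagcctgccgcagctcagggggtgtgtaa
Vcl, chr14:20929148-20929447, plus strand: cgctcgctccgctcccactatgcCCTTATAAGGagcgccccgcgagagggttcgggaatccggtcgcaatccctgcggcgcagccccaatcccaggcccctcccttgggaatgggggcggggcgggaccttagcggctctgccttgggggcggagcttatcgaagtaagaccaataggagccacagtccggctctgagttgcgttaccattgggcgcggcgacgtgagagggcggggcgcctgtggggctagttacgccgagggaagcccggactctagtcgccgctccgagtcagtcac
Arpc4, chr6:113377863-113378162, plus strand: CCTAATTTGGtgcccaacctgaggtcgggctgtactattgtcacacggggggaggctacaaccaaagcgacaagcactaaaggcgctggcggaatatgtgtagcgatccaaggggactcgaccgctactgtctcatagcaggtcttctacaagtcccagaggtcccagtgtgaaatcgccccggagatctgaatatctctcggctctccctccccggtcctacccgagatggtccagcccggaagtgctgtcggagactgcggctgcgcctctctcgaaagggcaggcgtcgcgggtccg
Filip1l, chr16:57548992-57549291, plus strand: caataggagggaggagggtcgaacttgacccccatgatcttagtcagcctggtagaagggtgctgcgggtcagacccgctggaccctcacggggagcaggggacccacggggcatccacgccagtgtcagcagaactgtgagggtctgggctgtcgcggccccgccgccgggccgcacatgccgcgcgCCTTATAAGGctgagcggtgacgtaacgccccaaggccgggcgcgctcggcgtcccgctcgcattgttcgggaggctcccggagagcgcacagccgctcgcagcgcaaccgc

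Between the motif and the start lay 40 bases in Myl6, 52 in Filip1l, 80 in Actg1, 217 in Vcl and 240 in Arpc4. The log2 difference was -0.22 for Myl6, -0.33 for Filip1l, -0.19 for Actg1, -0.10 for Vcl and -0.13 for Arpc4. Of these 5 genes only Vcl overlapped between VC and control. All VC values lay below all control values in 24 of the 40 member rows. That held for 11.6% of all tested genes and 28.5% of those with a mean value of 50 or more. Whether the motif bears on the differences was not tested. Srf itself, which is no member, had 69.9, 74.9 and 71.4 in VC and 96.6, 91.7 and 87.6 in control. It fell by 0.35 (SE 0.048, limma adjusted p = 0.0368). Srf belonged to a list of 8 SRF-MRTF regulators and targets, 6 below 0 and 2 above, where 46.3% of all tested genes were below 0. Of that list Srf and Ccn2 were called lower, as were 0.258% of all tested genes. Above 0 were Mrtfa (0.13) and Mrtfb (0.21). No gene of that list was called with no filter or with the replicate block. The same held without any 1 library other than control replicate 3. Dstn, the called member, had no match in its windows.

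Control replicate 3 moved with gene length among the members. Its log2 distance from the mean of the other 2 controls ran from 0.22 to -0.30, with a Spearman correlation of -0.78 with exon length over 40 genes that share these libraries. In 22 rows it was the highest control and in 15 the lowest. The median distance was 0.13 for the 22 rows under 4000 exon bases and -0.07 for the 18 longer ones, and in all tested genes with a mean value of 50 or more it was 0.10 and -0.04. The members' log2 difference between VC and control had a Spearman correlation of 0.46 with exon length with all controls and 0.14 without control replicate 3. Against controls 1 and 2 alone, all 3 VC values lay lower in 30 of 40 rows, where 17.3% of all tested genes did so, and 24 rows were lower and 1 higher at an unadjusted p under 0.05, against 8.25% and 9.53% of all tested genes in that fit. Without it the log2 difference was -0.05 for Tmsb10, -0.07 for Arpc4, 0.07 for Arpc1b, 0.01 for Capza1 and 0.04 for Vasp.

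**Figure D3:**
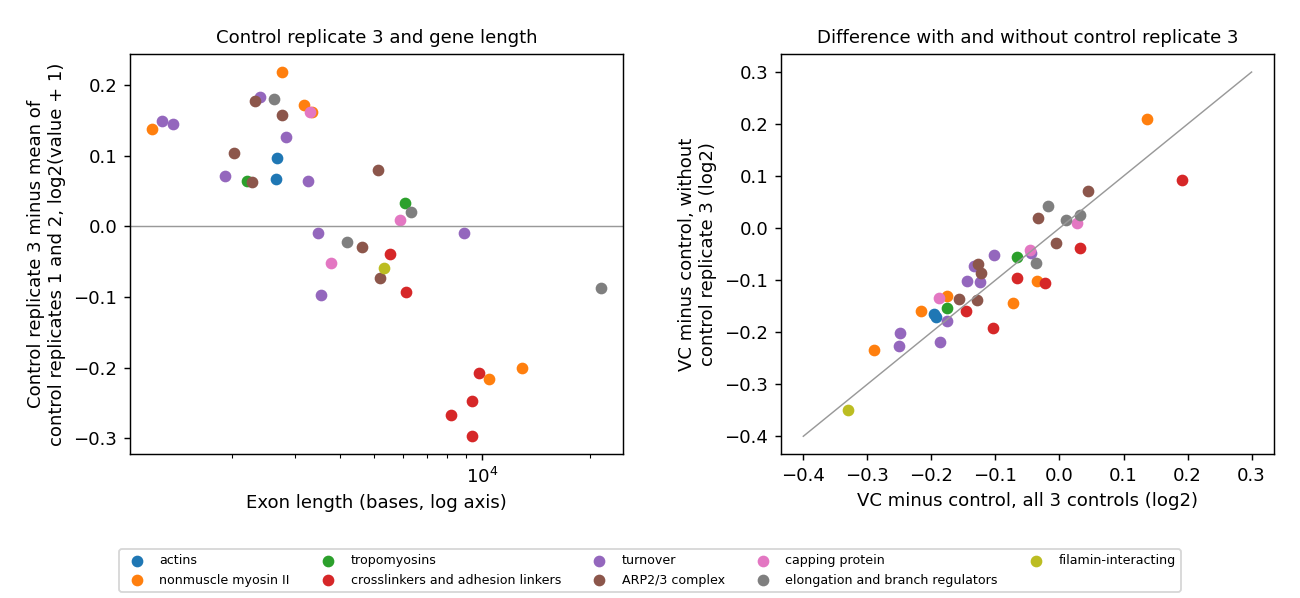
Left, log2 distance of control replicate 3 from the mean of control replicates 1 and 2 (y axis) against exon length in bases (log x axis) for the 40 rows, coloured by role. Right, VC minus control without control replicate 3 (y axis) against the same with all controls (x axis), both log2, with the line of equality; Filip1l stays lowest at -0.35 and -0.33, and long crosslinker genes lie below the line.

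Ratios within a library are free of the scaling between libraries. Besides those given above, Acta2, the smooth muscle actin, made up 4.84%, 4.70% and 4.78% of the sum of Actb, Actg1 and Acta2 in VC and 6.50%, 6.55% and 6.66% in control. In that share the groups did not overlap. Actn1 relative to Actn4 was 0.610, 0.592 and 0.617 in VC and 0.633, 0.635 and 0.658 in control.

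**Figure D4:**
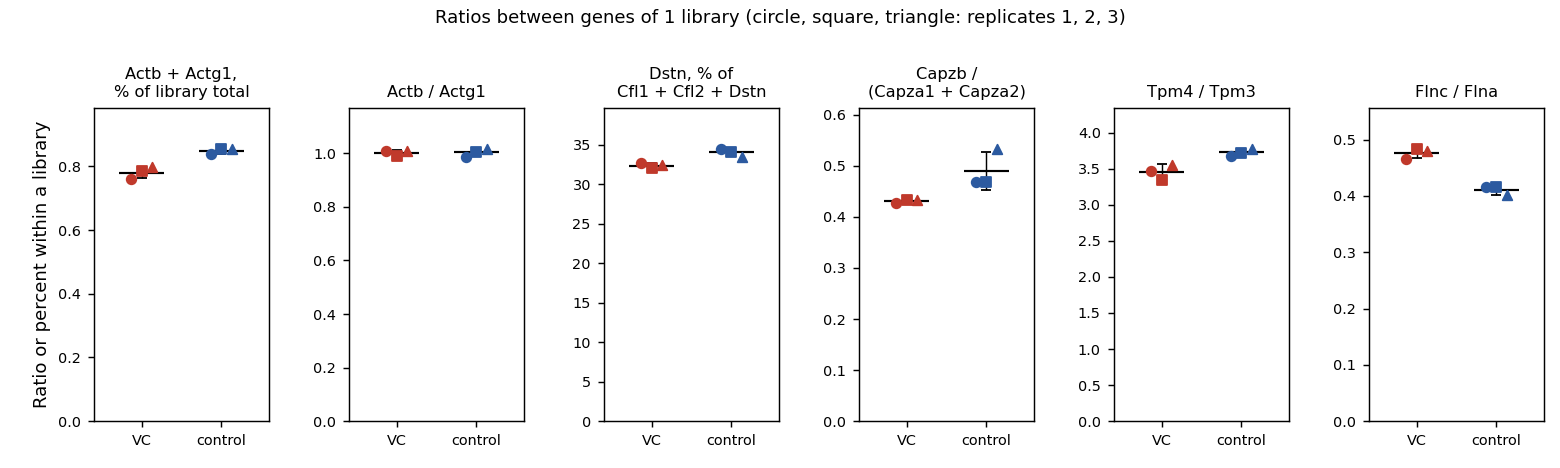
Shares and ratios of values within each library (y axes, from 0; points are libraries with shape for the replicate, bars the mean ± SD of 3). Actb over Actg1 overlaps between VC and control, Flnc over Flna is higher in every VC library, and the other 4 quantities are lower in every VC library.

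Other actin regulators were given by a list of 85 genes outside the 39, of which 74 passed the filter. Limma called 0 of the 74 in either direction, while 10 were lower and 4 higher at an unadjusted p under 0.05, where 8.2% and 9.05% of all tested genes were. The median log2 difference was 0.02. In bundling and membrane linking, 9 of 14 genes were below 0, where 46.3% of all tested genes were: Palld, palladin, averaged 57.3 ± 1.54 in VC and 66.5 ± 1.13 in control, and Marcksl1, a membrane-bound actin regulator, 76.5 ± 7.35 and 97.0 ± 6.67 (SD, n = 3 each). Of the formins and other elongation genes, 8 of 12 were above 0, where 53.7% of all tested genes were. Their median was 0.11, which was 0.03 without control replicate 3 and 0.02 with trends removed. The formin Inf2 had a log2 difference of 0.15 and the Ena/VASP gene Evl one of -0.18.

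In severing, capping and monomer binding 8 of 12 were above 0. Eps8, a capping and bundling protein, averaged 148.9 ± 1.71 in VC and 131.1 ± 5.61 in control, with a log2 difference of 0.18 (SE 0.039, limma adjusted p = 0.0960), and the severing protein gelsolin, Gsn, averaged 243.6 ± 1.52 and 267.5 ± 13.3 (SD, n = 3 each). WAVE and WASP genes, which activate ARP2/3, had a median of 0.02 over 11 genes, with Wipf2 at 0.10 and Abi1 at 0.05. Further ARP2/3 and branch genes included the coronins Coro1b (0.11) and Coro1c (-0.09), and the regulators of myosin light chain included the phosphatase subunits Ppp1r12b (0.18) and Ppp1cb (-0.08).

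Among 15 smooth muscle contractile genes, 11 passed the filter and limma called 5 lower and 0 higher (Acta2, Actg2, Myl9, Tpm1 and Tpm2), with a median log2 difference of -0.29. Over all tested genes 0.258% were called lower. The count was 5 without control replicate 3, 1 without control replicate 1, and 0 with the replicate block or without control replicate 2 or any 1 VC replicate. The general cytoskeletal members had 1 of 40 called and a median of -0.11. Tpm1 and Tpm2 were at -0.29 and -0.29, against -0.18 and -0.07 for Tpm4 and Tpm3, and Myl9 was at -0.68, against -0.29 for Myl12a. Acta2 was at -0.68 and Actg2 at -0.53, while Smtn (0.07) and Mylk (0.05) were above 0. Acta1 was at -0.18 (SE 0.23) and overlapped between groups. Its mean value over all libraries was 1.37, on 10 to 25 reads per library. With so few reads, Acta1 cannot be set against Actb and Actg1. The difference between the lists was not tested.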

How the data were processed

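RNA was extracted with Trizol and the TruSeq RNA kit was used, per the labels' protocols, with no word on strand; HISAT2 and GRCm39 come from the submitters' processing notes. The deposited table holds a non-negative signal per Ensembl gene, a TPM value times 1 factor per library, with column totals from 966031 to 1058206; the table's name points to TMM scaling by the authors. The read counter, the annotation and the handling of reads with several matches are not stated in any source used here.

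Symbols and exon lengths came from GENCODE M21 (GRCm38, another build than the files'), so no coordinates of the files are given. Values times exon length were whole multiples of 1 read for 98.7% to 98.9% of values (within 0.1 read); recovered reads judge depth and serve 1 alternative. Rows reaching a value of 1 in 3 or more libraries were kept (13972), and log2(value + 1) was compared in limma 3.58.1 (R 4.3.3) with a trended prior and two-sided tests, and p was adjusted over all kept genes by Benjamini-Hochberg at a threshold of 0.05. No covariate was used. The same steps were tested on simulated data. The members and lists were chosen with earlier results of these data known. All members are accounted for: per-library values go to members past the threshold and to the 2 with the highest mean in each class, and in each related group the 2 genes with the smallest p are named. The result of 1 related group is not reported here. Other members given in full (Wdr1, Tmsb4x, Myl12a, Cfl1, Flnc and Actn1) were chosen after their values were seen, as was the motif search. Exons of 15 member symbols overlap another gene in the models, and without a stated strand such reads cannot be told apart. Python 3.11.15, pandas 2.3.3, numpy 2.4.6 and matplotlib 3.10.9 made tables and figures.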

Additional observations from a re-analysis of the deposited data

How the results depend on the processing

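Limma called 96 genes over the whole table and 1 member lower. With no filter the counts were 30 and 0, with a minimum value of 5 they were 183 and 4, and with the replicate block 0 and 0. Limma-voom on recovered reads gave 548 and 12, and removing trends with exon length and level, an alternative chosen after seeing the data, gave 241 and 4. Equal totals gave 217 genes and the same number of members, and quantile normalization 114 and 1, where the member called was Filip1l in place of Dstn. Leaving out 1 library gave 0 to 82 genes and 0 to 1 members; the 82 came without control replicate 3. Where 0 genes were called, 1777 to 2248 had an unadjusted p under 0.05. No setting called a member higher. The cause of these shifts was not tested.

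The members' median of -0.11 was -0.040 with equal totals, -0.040 after quantile normalization and -0.059 with trends removed, and -0.12 to -0.10 with 1 library left out. Of 599 member values under 15 alternatives, 573 kept their side of the threshold, 18 passed it only under the alternative and 8, all of Dstn, lost it. Dstn stayed between -0.26 and -0.15, and 14 rows that were not called changed sign in at least 1 setting. Of 135 medians of the role classes under alternatives, 42 moved by more than 0.016. That is the SD between replicates of the median of all members, not of each class. Same-numbered libraries did not deviate together (correlations of -0.019 to 0.005), so no pairing was seen. This check cannot show that they were handled separately. The 95% intervals of single members span 0.13 to 0.47 log2 units, which limits what 3 libraries a group can show.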
